A study of Mus musculus with 4 samples.

Results

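The genes described here are 39 hypoxia-responsive and glycolytic genes out of 28889 genes listed in any library with counts. They were chosen by name, with earlier results of these data known. They cover glucose import (Slc2a1, Slc2a3), the glycolytic enzymes from hexokinase to lactate dehydrogenase, the lactate transporters Slc16a1 and Slc16a3, regulators of the pathway (Pdk1, Pfkfb3, Pfkfb4), genes known to respond to low oxygen (among them Bnip3, Vegfa, Ndrg1 and Adm), the oxygen sensors Egln1 and Egln3, and the factors Hif1a and Epas1. All 39 were listed in each of the 4 libraries' gene lists. The tumours arose in livers of male C57BL/6 mice, 18 weeks old at collection, 10 weeks after plasmids were forced into the liver through the tail vein. The KLF2 group (2 mice) received pT3-EF1α-KLF2 on top of pT3-EF1α-c-MYC and of pT3-EF1α-AKT. The vector group (2 mice) received the same c-MYC and AKT plasmids with the pT3 empty vector, so both groups carried the oncogenes c-MYC and AKT, and both received SB100X, a transposase that inserts the cassettes. The EF1α promoter is active in most cell types, so the cassettes are expressed in whichever cells took up and integrated the plasmids. Counts were used from both KLF2 libraries and from vector replicate 2; counts of vector replicate 1 were not analysed here, so each comparison sets 2 mice against 1.

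Glycolysis splits glucose into pyruvate, and many tumours turn that pyruvate into lactate and export it even when oxygen is present. When oxygen is low, the prolyl hydroxylases encoded by the Egln genes no longer mark HIF proteins for degradation, and HIF dimers bind a short DNA element, the hypoxia response element, near genes for glucose import, glycolysis, angiogenesis and mitophagy. Normal hepatocytes use the liver isoforms of several steps (among them Pklr and Slc2a2), whereas liver tumours are known for the isoforms of other tissues (Hk2, Aldoa, Pkm, Slc2a1). c-MYC and AKT are themselves known to raise glycolytic genes, and both groups carried them.

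The KLF2 libraries held 6282 and 11240 barcodes with 95374838 and 125458473 UMIs, and the vector library 12852 barcodes with 45594544 UMIs (a UMI, or unique molecular identifier, counts 1 captured RNA molecule). The median share of mitochondrial UMIs per barcode was 0.227% and 0.350% in the KLF2 libraries and 16.3% in the vector library, and the kept cells had medians of 8912, 5854 and 3191 UMIs. Levels are given as CPM, counts scaled to 1000000 UMIs of a cell class in a library, and since UMIs were not divided by transcript length, levels of different genes are not compared and shares within a gene family, where given, are shares of UMIs. Cells were clustered without the 39 genes and named from marker genes. The tumour and liver cell compartment, called the compartment below, joins hepatocyte-lineage-like and cholangiocyte-like clusters with unnamed clusters that had less than 100 CPM of the leukocyte gene Ptprc. It held 5208 and 8330 cells of the KLF2 libraries and 606 of the vector library, but its make-up differed: 603 of the 606 vector cells were hepatocyte-lineage-like, against 20 and 57 KLF2 cells, and the summed CPM of 14 hepatocyte-lineage markers was 76.9 and 114 CPM in the KLF2 libraries, against 8700.1 CPM in the vector library. The KLF2 cells of the compartment were mostly unnamed (4986 and 7464 cells) or cholangiocyte-like (202 and 809 cells). Group and cell type cannot be told apart there. Klf2 itself, whose UMIs from the mouse gene and from the plasmid are not told apart, had 326 and 379.7 CPM in the KLF2 libraries, against 139 CPM in the vector library in the compartment, a difference that did not pass the test (log2 fold change 0.66, adjusted p = 0.156). Klf2 passed in 1 of the 7 cell classes, T/NK-like cells, where it was lower, with 340.3 and 332 CPM in the KLF2 libraries, against 626 CPM in the vector library (log2 fold change -1.15, adjusted p = 6.83e-04).

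Expression of the 39 genes in KLF2 tumours was set against the vector tumour in each of 7 cell classes, on UMIs summed per mouse (edgeR's quasi-likelihood test with Benjamini-Hochberg adjustment over all genes of the class, threshold 0.05). A gene's own spread could be estimated only from the KLF2 mice, which left 1 residual degree of freedom. The lone vector mouse was taken to have the same spread. The test then drew each gene's estimate toward those of the other genes in the class. A very small adjusted p therefore leans on this pooling over genes, and not on differences between mice alone. The weight of the pooling can differ by class, so p-values are not compared between classes. In the compartment 20 of 39 genes were higher in KLF2 tumours, where 13.4% of all genes tested were, and 1 was lower, where 10.4% of all genes were. The median log2 fold change was 1.52 over the 39 genes and 0.68 over all genes tested, so genes outside the 39 were also shifted upward in the class. In myeloid-like cells 18 of 38 tested genes were higher (14.2% of all genes) and 1 was lower (8.4%). The counts of higher genes were 8 of 31 in neutrophil-like cells (6.3% of all genes), 15 of 34 in endothelial-like cells (14.6%), 11 of 36 in mesenchymal-like cells (11.1%), 10 of 35 in T/NK-like cells (11.3%) and 7 of 29 in B/plasma-like cells (7.93%). In T/NK-like cells 1 gene was lower (8.84% of all genes). In neutrophil-like, endothelial-like, mesenchymal-like and B/plasma-like cells 0 were lower in edgeR, against 4.95%, 13.8%, 8.81% and 7.09% of all genes; at an unadjusted p under 0.05 the counts there were 0, 0, 0 and 1, and DESeq2 called 0 lower in each. The shares of all genes at an unadjusted p, and those in DESeq2, are not given here. The genes not tested in a class had too few UMIs there. Outside the compartment the median of all genes lay between 0.02 in endothelial-like cells and 0.29 in neutrophil-like cells, and that of the tested genes of the 39 between 0.60 and 1.43 in the same classes.

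**Figure D1:**
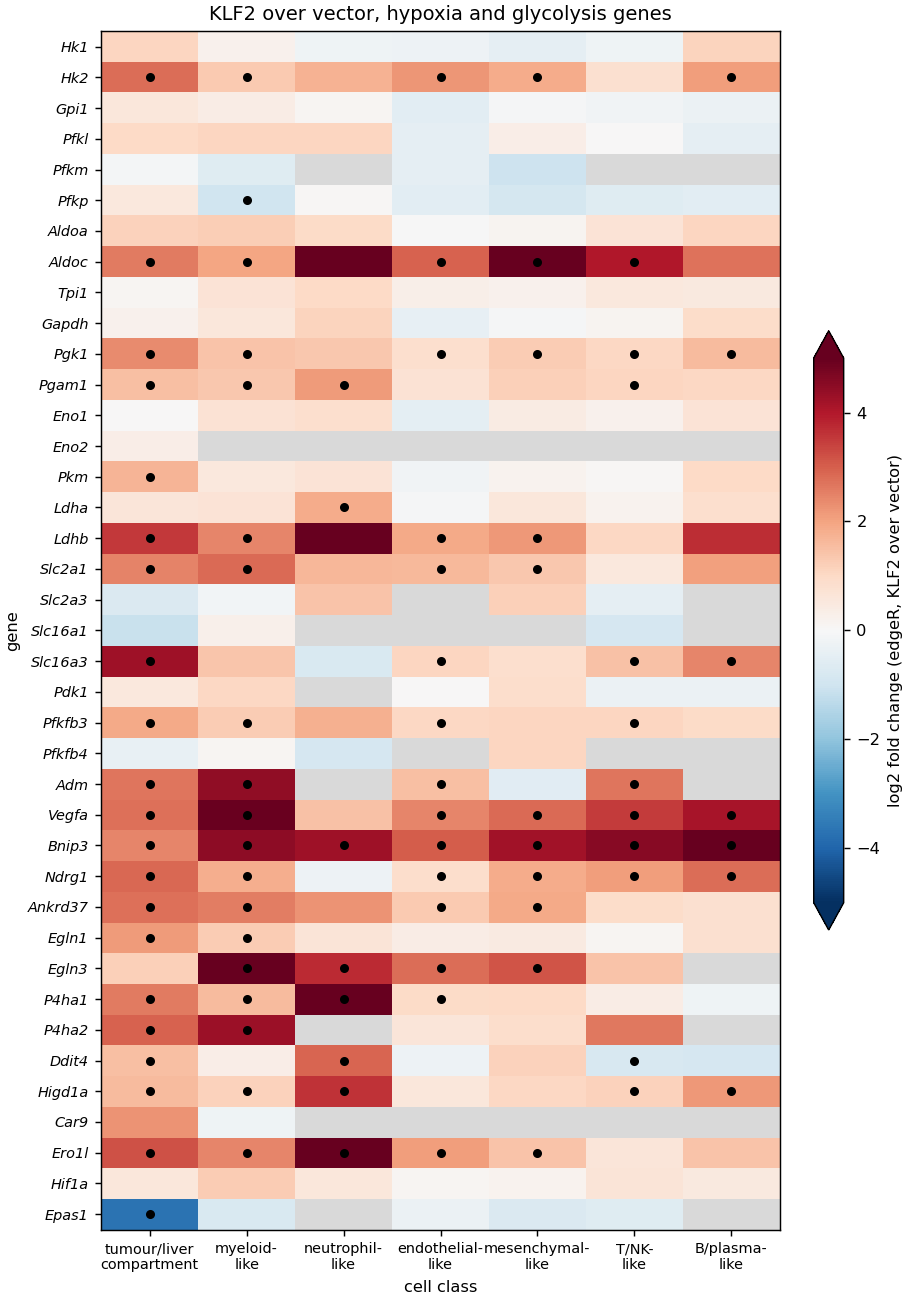
Log2 fold changes (colour, KLF2 over vector, saturated beyond 5 in either direction) of the 39 genes (rows) in 7 cell classes (columns); black dots mark an adjusted p under 0.05 in edgeR's quasi-likelihood test and grey cells were not tested. Bnip3 has a dot in all 7 columns, Pgk1, Vegfa and Ndrg1 in 6, and Gapdh, Tpi1, Eno1 and Gpi1 in none.

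The rises followed the steps of the pathway unevenly. In the compartment the glucose transporter gene Slc2a1 had 42.1 and 50.3 CPM in the KLF2 libraries, against 5.09 CPM in the vector library (log2 fold change 2.49, SE 0.32, adjusted p = 0.0118). Hk2, the hexokinase that traps glucose in many tumours, had 163 and 189.7 CPM in the KLF2 libraries, against 15.9 CPM in the vector library (log2 fold change 2.78, SE 0.30, adjusted p = 0.00835). For both genes the KLF2 libraries lay close to each other and far above vector. Pfkfb3, whose product makes an activator of phosphofructokinase, also rose, with 33.8 and 38.1 CPM in the KLF2 libraries, against 6.05 CPM in the vector library. The phosphofructokinase genes Pfkl, Pfkm and Pfkp themselves did not pass the test, with log2 fold changes of 0.98, -0.08 and 0.55.

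Among the enzymes further down the pathway, Pgk1, which makes ATP in the pathway, had 712 and 558 CPM in the KLF2 libraries, against 77.3 CPM in the vector library (log2 fold change 2.35, SE 0.34, adjusted p = 0.0147). Pgam1, the phosphoglycerate mutase, had 609 and 480.2 CPM in the KLF2 libraries, against 119 CPM in the vector library (log2 fold change 1.50, SE 0.32, adjusted p = 0.0355). Pkm, the pyruvate kinase of non-liver tissues, had 1114 and 762 CPM in the KLF2 libraries, against 178 CPM in the vector library (log2 fold change 1.71, SE 0.38, adjusted p = 0.0398). Aldoc, the brain-type aldolase, had 79.0 and 89.1 CPM in the KLF2 libraries, against 8.59 CPM in the vector library (log2 fold change 2.60, SE 0.29, adjusted p = 0.00865), while the aldolase gene Aldoa had 1186 and 1017 CPM in the KLF2 libraries, against 308 CPM in the vector library and missed the threshold (adjusted p = 0.0602).

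The enzymes often used as reference genes stood apart from these. Gapdh had 2875 and 1668 CPM in the KLF2 libraries, against 1225 CPM in the vector library (log2 fold change 0.20, SE 0.44, adjusted p = 0.736), and the KLF2 libraries were themselves further apart than KLF2 replicate 2 was from vector. Eno1, the main enolase, had 694 and 356 CPM in the KLF2 libraries, against 319 CPM in the vector library, so that KLF2 replicate 2 and vector were nearly level (log2 fold change 0.03). Tpi1, Gpi1 and Ldha had log2 fold changes of 0.11, 0.57 and 0.59, none past the threshold. All 5 of these genes were above vector in CPM in both KLF2 libraries, as were 36 of the 39 genes and 74.7% of all genes tested.

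At the lactate end, Slc16a3, which exports lactate and is a known HIF target, rose most of all 39 genes in the compartment, with 112 and 99.5 CPM in the KLF2 libraries, against 3.50 CPM in the vector library (log2 fold change 4.23, SE 0.34, adjusted p = 0.00511). The related transporter gene Slc16a1 had 10.1 and 5.54 CPM in the KLF2 libraries, against 10.5 CPM in the vector library and did not pass (log2 fold change -1.12, adjusted p = 0.17). Ldhb, the lactate dehydrogenase subunit typical of tissues that take lactate up, had 89.8 and 51.2 CPM in the KLF2 libraries, against 3.82 CPM in the vector library (log2 fold change 3.52, SE 0.57, adjusted p = 0.0194), against a log2 fold change of 0.59 for the Ldha subunit. The KLF2 libraries differed by 1.75-fold from each other in Ldhb, less than either differed from vector. Pdk1, which keeps pyruvate out of the mitochondria, had 40.6 and 43.2 CPM in the KLF2 libraries, against 18.1 CPM in the vector library and did not pass.

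Among genes known to respond to low oxygen, Adm, Vegfa, Bnip3, Ndrg1, Ankrd37, P4ha1, P4ha2, Ddit4, Higd1a and Ero1l passed in the compartment, and Car9 and Egln3 did not. Ero1l, an oxidase that forms disulfide bonds in the endoplasmic reticulum, had 45.7 and 55.7 CPM in the KLF2 libraries, against 3.50 CPM in the vector library (log2 fold change 3.17, SE 0.35, adjusted p = 0.00876). Vegfa, the main angiogenic growth factor, had 73.6 and 108 CPM in the KLF2 libraries, against 8.27 CPM in the vector library (log2 fold change 2.77, SE 0.40, adjusted p = 0.015). Bnip3, a mitochondrial receptor for mitophagy, had 216 and 253 CPM in the KLF2 libraries, against 27.0 CPM in the vector library (log2 fold change 2.43, SE 0.30, adjusted p = 0.0107). None of these 3 genes had a KLF2 library near the vector level. Ndrg1, a stress-response gene linked to differentiation, had 131 and 108 CPM in the KLF2 libraries, against 10.2 CPM in the vector library, and Ankrd37, an ankyrin-repeat gene used in hypoxia signatures, had 48.5 and 49.0 CPM in the KLF2 libraries, against 4.45 CPM in the vector library. P4ha1 and P4ha2, subunits of the enzyme that hydroxylates collagen, also rose: P4ha1 had 98.0 and 82.6 CPM in the KLF2 libraries, against 9.23 CPM in the vector library, and P4ha2 had 31.9 and 32.1 CPM in the KLF2 libraries, against 2.55 CPM in the vector library. Adm, the vasodilator peptide adrenomedullin, had 29.0 and 30.6 CPM in the KLF2 libraries, against 2.86 CPM in the vector library. Car9, a carbonic anhydrase and classical hypoxia marker, was near the detection limit, with 4.33 and 5.48 CPM in the KLF2 libraries, against 0.636 CPM in the vector library and an adjusted p of 0.0668.

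The oxygen-sensing genes moved in different directions. Egln1, the main HIF prolyl hydroxylase, had 64.4 and 75.2 CPM in the KLF2 libraries, against 9.86 CPM in the vector library (log2 fold change 2.13, SE 0.29, adjusted p = 0.0128), while Egln3 had 26.6 and 31.7 CPM in the KLF2 libraries, against 7.95 CPM in the vector library (adjusted p = 0.0551). Hif1a had 52.0 and 58.2 CPM in the KLF2 libraries, against 22.9 CPM in the vector library and did not pass (log2 fold change 0.58, adjusted p = 0.159). Epas1, which encodes HIF-2α, was the only one of the 39 genes to fall in the compartment, with 5.58 and 3.34 CPM in the KLF2 libraries, against 36.0 CPM in the vector library (log2 fold change -3.70, SE 0.39, adjusted p = 0.00799). Both KLF2 libraries lay far below the vector library. Epas1 is also an endothelial gene, and the summed CPM of 12 endothelial markers in the compartment was 51.1 and 67.8 CPM in the KLF2 libraries, against 277 CPM in the vector library; their part in the Epas1 value was not tested.

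**Figure D2:**
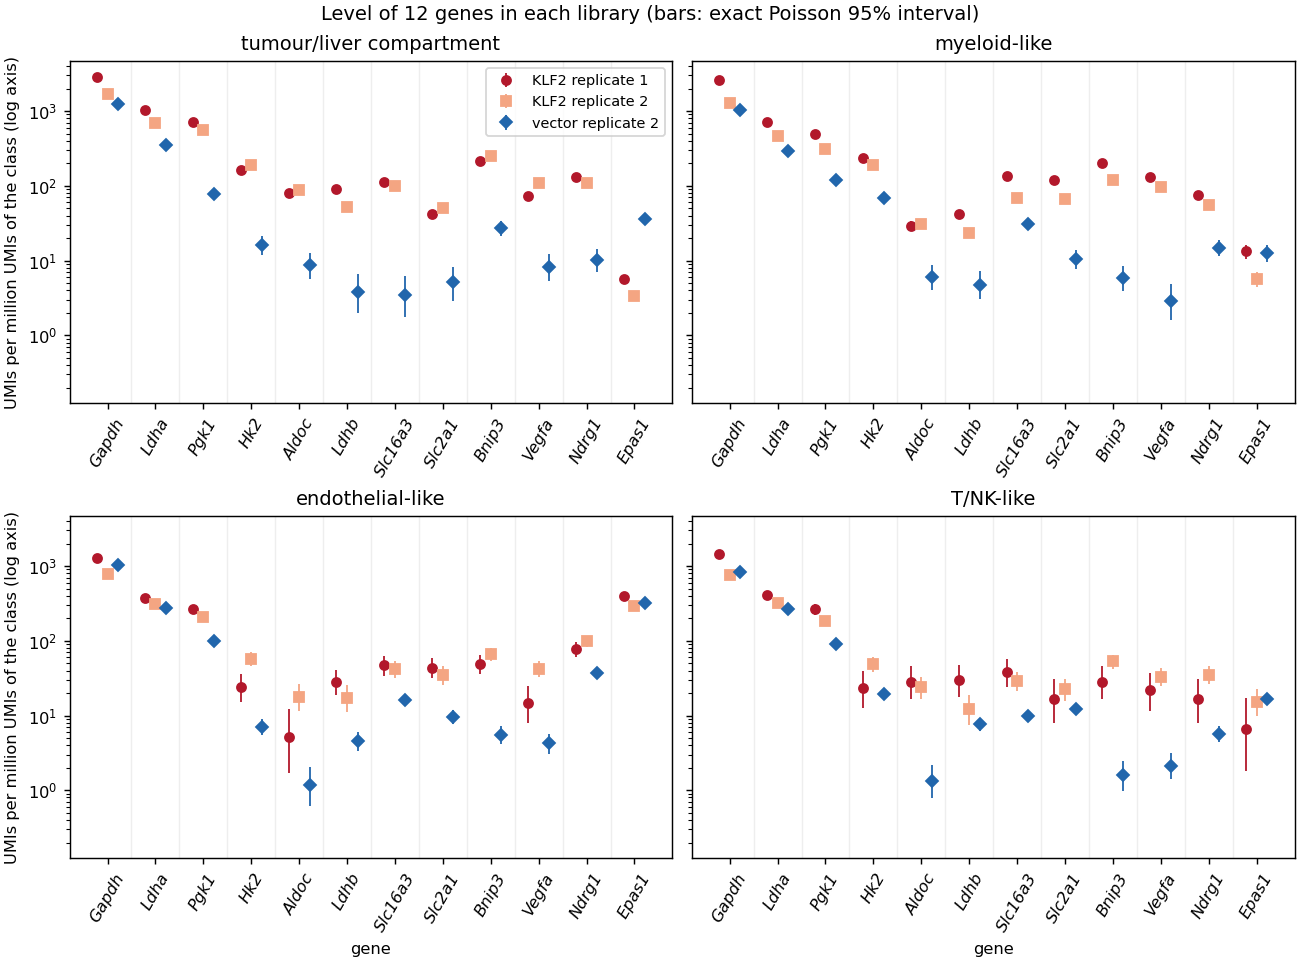
Levels of 12 of the genes (CPM, log axis, bars are exact Poisson 95% intervals that cover counting error only) in each library for 4 cell classes. In the compartment the KLF2 points of Pgk1, Hk2, Aldoc, Ldhb, Slc16a3, Slc2a1, Bnip3, Vegfa and Ndrg1 lie far above the vector point. Those of Gapdh and Ldha lie less far above it, and those of Epas1 below it.

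Restricted to hepatocyte-lineage-like cells, which made up nearly all of the vector compartment, the comparison rested on 20 and 57 KLF2 cells against 603 vector cells. There 1 of 32 tested genes passed, Ldhb, with 27.0 and 84.2 CPM in the KLF2 libraries and 3.85 CPM in the vector library (log2 fold change 3.06, SE 0.88, adjusted p = 0.0167); 1.84% of all genes were higher and 2.08% lower. The median log2 fold change of the tested genes was 0.15, against 0.00 over all genes. KLF2 replicate 1 held 2 UMIs of Ldhb, 11 of Bnip3 and none of Vegfa, Aldoc or Slc16a3 in these cells. Bnip3 had 148 and 133 CPM in the KLF2 libraries, against 26.9 CPM in the vector library, and Egln3 had 67.4 and 86.2 CPM in the KLF2 libraries, against 8 CPM in the vector library; their log2 fold changes of 1.36 and 2.29 did not pass (adjusted p = 0.61 and 0.148). Pkm and Higd1a, higher in the whole compartment, had log2 fold changes of -0.43 and -0.50 in these cells. In these cells the summed CPM of 9 cholangiocyte markers was 1443 and 5351 CPM in the KLF2 libraries, against 433 CPM in the vector library; its part in the Ldhb value was not tested.

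The choice of isoform, measured as the share of a gene family's UMIs, differed widely between the groups in the compartment. Of the UMIs of Hk1, Hk2 and Hk3, Hk2 made up 79.1% and 77.3% in the KLF2 libraries, against 46.7% in the vector library (Wilson 95% interval in vector 37.6% to 56.1%). Hk1 made up 20.8% and 22.5% in the KLF2 libraries, against 42.1% in the vector library. Of the UMIs of Aldoa and Aldoc, Aldoc made up 6.24% and 8.06% in the KLF2 libraries, against 2.71% in the vector library. Of the Pkm and Pklr UMIs, Pkm made up 100% and 99.9% in the KLF2 libraries, against 86.0% in the vector library. Of the Slc2a1, Slc2a2 and Slc2a3 UMIs, Slc2a1 made up 89.5% and 95.6% in the KLF2 libraries, against 29.1% in the vector library. In the vector library the hepatocyte transporter Slc2a2 made up 50.9%. Of the UMIs of both lactate transporters, Slc16a3 made up 91.7% and 94.7% in the KLF2 libraries, against 25% in the vector library. Of the UMIs of Hif1a and Epas1, Hif1a made up 90.3% and 94.6% in the KLF2 libraries, against 38.9% in the vector library. In hepatocyte-lineage-like cells alone, Hk2 shares were 66.7% and 76.9% in the KLF2 libraries, against 47.2% in the vector library, from 3 and 52 UMIs of Hk1, Hk2 and Hk3 in the KLF2 libraries, against 106 in the vector library.

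Across the other cell classes the hexokinase shares varied. In endothelial-like cells Hk1 took 82.2% and 53.6% in the KLF2 libraries, against 87.8% in the vector library, and Hk2 took 17.8% and 46.4% in the KLF2 libraries, against 7.98% in the vector library there. In T/NK-like cells Hk2 took 29.8% and 47.9% in the KLF2 libraries, against 26.0% in the vector library, so 1 KLF2 library lay next to vector and the other well above it. In mesenchymal-like cells it took 74.7% and 83.0% in the KLF2 libraries, against 42.1% in the vector library. In myeloid-like cells Hk2 took 74.8% and 74.9% in the KLF2 libraries, against 46.9% in the vector library, and the myeloid hexokinase gene Hk3 took 9.08% and 9.57% in the KLF2 libraries, against 31.8% in the vector library. Hk2, Aldoc, Ldhb, Pkm and Hif1a each had a higher share in both KLF2 libraries than in vector in all 7 classes, which is a description without a test. For Pkm this held in 4 classes once every cell was thinned to 1000 UMIs. Hk2 in B/plasma-like cells was above vector by less than its counting error in KLF2 replicate 1 (42.1% and 67.1% in the KLF2 libraries, against 40.6% in the vector library). The Wilson intervals of the Aldoc share also overlapped between KLF2 replicate 1 and vector in myeloid-like, neutrophil-like, endothelial-like and B/plasma-like cells. Of the UMIs of Eno1, Eno2 and Eno3, Eno1 held 89.0% to 100% in the 7 classes and 3 libraries. The enolase gene Eno1b was left out of that family. It had 97.2 and 52.3 CPM in the KLF2 libraries, against 96.4 CPM in the vector library in the compartment. Outside the compartment Pkm held 99.9% to 100% of its family in the KLF2 libraries and 97.6% to 99.8% in the vector library, so those differences were small.

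Genes of hepatocytes were also counted in cell types that are not known to express them. The 14 hepatocyte-lineage markers together reached 46.7 and 42.0 CPM in T/NK-like cells of the KLF2 libraries, against 409.9 CPM in those of the vector library. In endothelial-like cells they reached 115 and 55.4 CPM in the KLF2 libraries, against 384 CPM in the vector library. In myeloid-like cells they reached 603 and 323 CPM in the KLF2 libraries, against 419 CPM in the vector library, so vector lay between the KLF2 libraries. Both KLF2 libraries lay below vector in neutrophil-like, mesenchymal-like and B/plasma-like cells, with 403 and 249 CPM against 449 CPM in mesenchymal-like cells. Genes of the KLF2 compartment were counted in other classes too. Il31ra, a cytokine receptor gene among the leading genes of the cluster led by Camk1d and picked after its values were seen, had 425 and 537.5 CPM in the compartment of the KLF2 libraries, against 0 CPM in that of the vector library. In the other 6 classes it had 255 to 427 CPM in KLF2 replicate 1 and 466 to 694 CPM in KLF2 replicate 2, against 0 to 0.828 CPM in the vector library. Krt7, an epithelial keratin, had 185 and 325 CPM in the KLF2 libraries, against 0 CPM in the vector library in neutrophil-like cells and 42.7 and 102 CPM in the KLF2 libraries, against 2.07 CPM in the vector library in myeloid-like cells. The summed CPM of 9 cholangiocyte markers, among them Spp1, which macrophages also express, in the 6 classes was 108 to 2538 CPM in KLF2 replicate 1 and 369 to 2789.6 CPM in KLF2 replicate 2, against 15.6 to 42.9 CPM in the vector library. These values were higher in the KLF2 libraries in each of the 6 classes, as were most of the called genes, and how much RNA from outside the cell, or from other cells, entered each value was not tested.

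**Figure D3:**
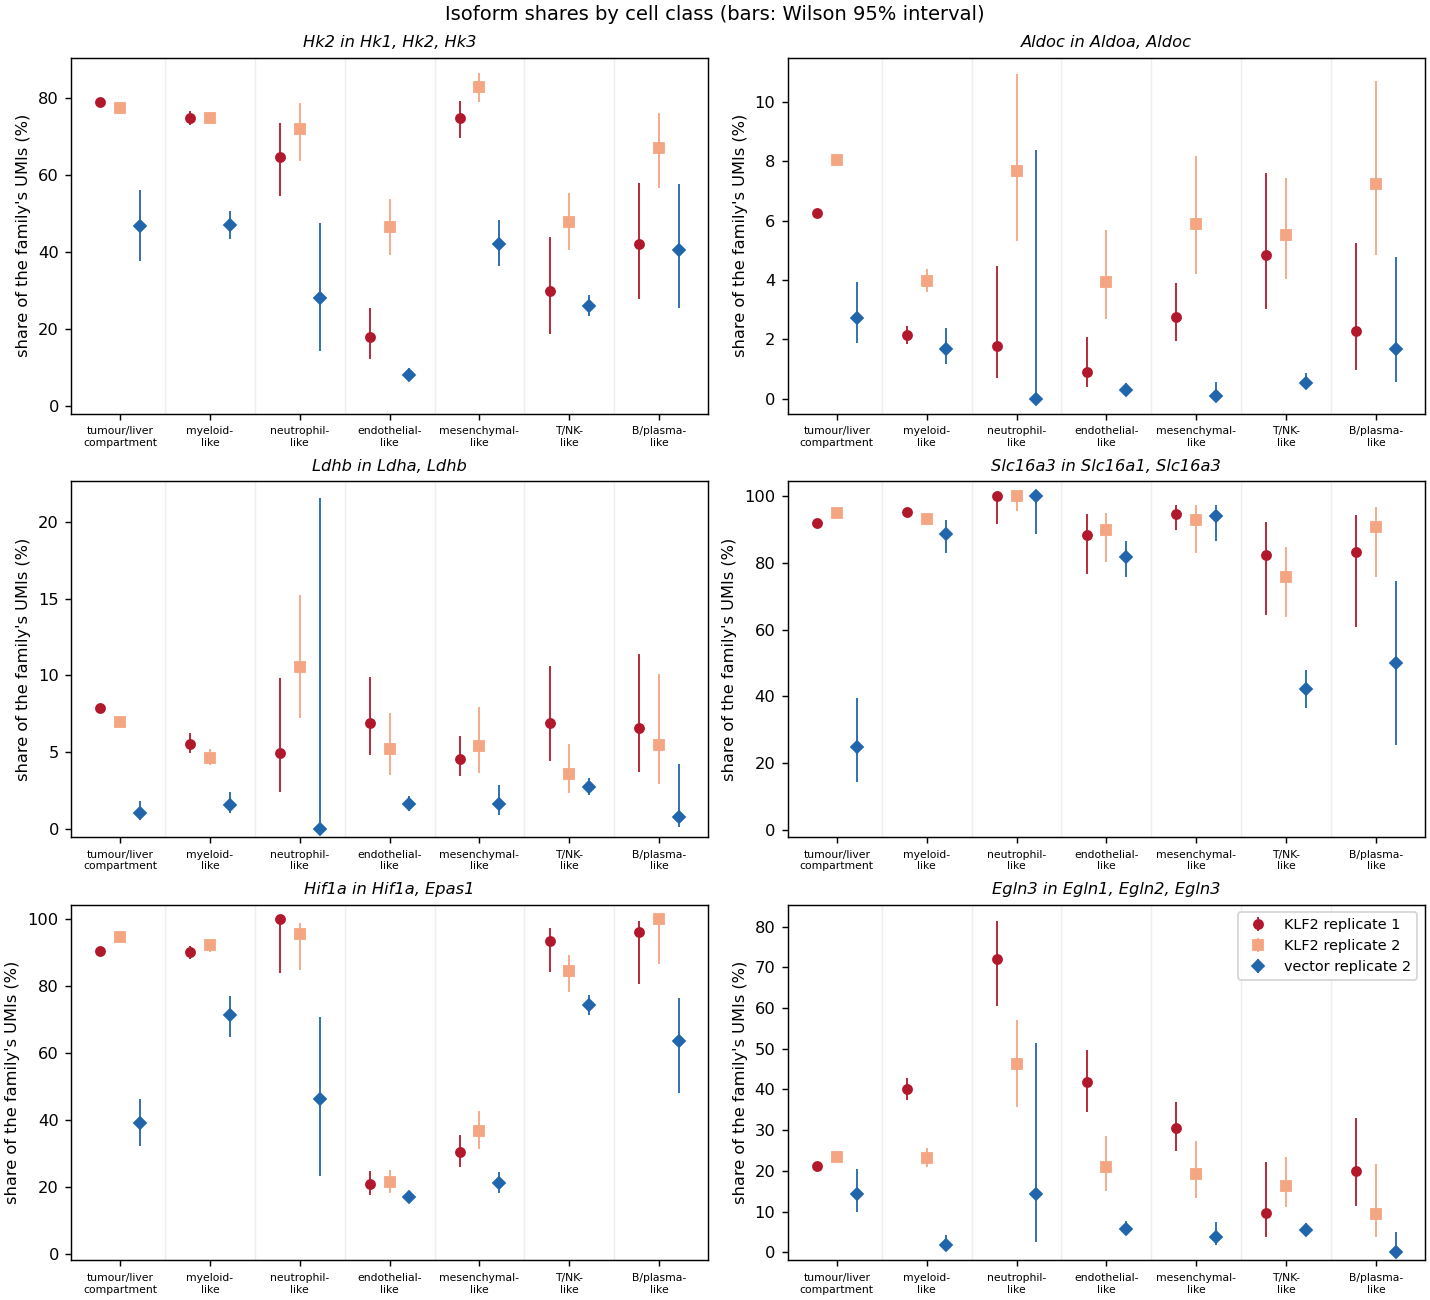
Shares (%, bars are Wilson 95% intervals) of 6 isoforms among the UMIs of their family in 7 cell classes and 3 libraries. The KLF2 points of Hk2, Aldoc, Ldhb and Hif1a lie above the vector point in each class, and the intervals of neutrophil-like and B/plasma-like cells are wide.

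Within the KLF2 tumours the unnamed and cholangiocyte-like cells of the compartment fell into 9 clusters, named here by their leading gene (the hepatocyte-lineage-like cluster, led by Fabp1, with 20 and 57 KLF2 cells, is left out), and the 39 genes were spread unevenly over them (levels by cluster are a description, since the cells were clustered on other genes of the same cells). In both KLF2 libraries 24 of the 39 genes had the same highest cluster. The share of all genes with the same highest cluster is not given here. Of these 24 genes, 7 were highest in the cluster led by Mdga2 and 4 each in those led by Defa21 and Ldhb. The clusters led by Ibsp and Ly6d were highest for 3 each, the Fxyd6 cluster for 2 and the Malat1 cluster for 1. Ldhb was concentrated in the cluster it leads, with 459 and 495 CPM in the KLF2 libraries, against 10.5 and 6.33 CPM in the Fxyd6 cluster. That cluster was named for Ldhb as its most raised gene, so a high level there is given by the naming. Higd1a, which binds respiratory chain complexes, was highest in the Fxyd6 cluster, with 1134 and 1465 CPM, and lowest in the Mdga2 cluster, with 151 and 213 CPM.

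The Mdga2 cluster combined low levels of many glycolytic and hypoxia-responsive genes with high levels of other genes of the list. Gapdh was lowest there, at 453 and 346 CPM, against 3383 and 2184 CPM in the Fxyd6 cluster. Aldoa was lowest there too, at 294 and 247 CPM. Pgk1, Aldoc, Slc16a3, Bnip3, Ankrd37, Ddit4 and Higd1a were among the further genes at their lowest there in both KLF2 libraries. Bnip3 had 77.3 and 88.1 CPM in that cluster. Hk2 and Hif1a were at their highest, with 341 and 454 CPM of Hk2 and 139 and 175 CPM of Hif1a, against 99.1 and 99.0 CPM and 36.5 and 40.1 CPM in the Fxyd6 cluster. The Malat1 cluster shared that pattern for Gapdh (748 and 706 CPM) and Hk2 (339 and 363 CPM), and it had 146 and 144 CPM of Vegfa. Malat1, which leads it, is a nuclear non-coding RNA. Bnip3 was highest in the Defa21 cluster, with 424 and 431 CPM, and the cholangiocyte-like cluster led by Ly6d had 214 and 141 CPM of Slc16a3 and 112 and 129 CPM of Aldoc. Car9 had 22.7 and 14.0 CPM in these cholangiocyte-like cells, and 3.24 and 3.59 CPM in the unnamed clusters as a whole; in KLF2 replicate 1 the Malat1 cluster was higher still, with 24.9 CPM.

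**Figure D4:**
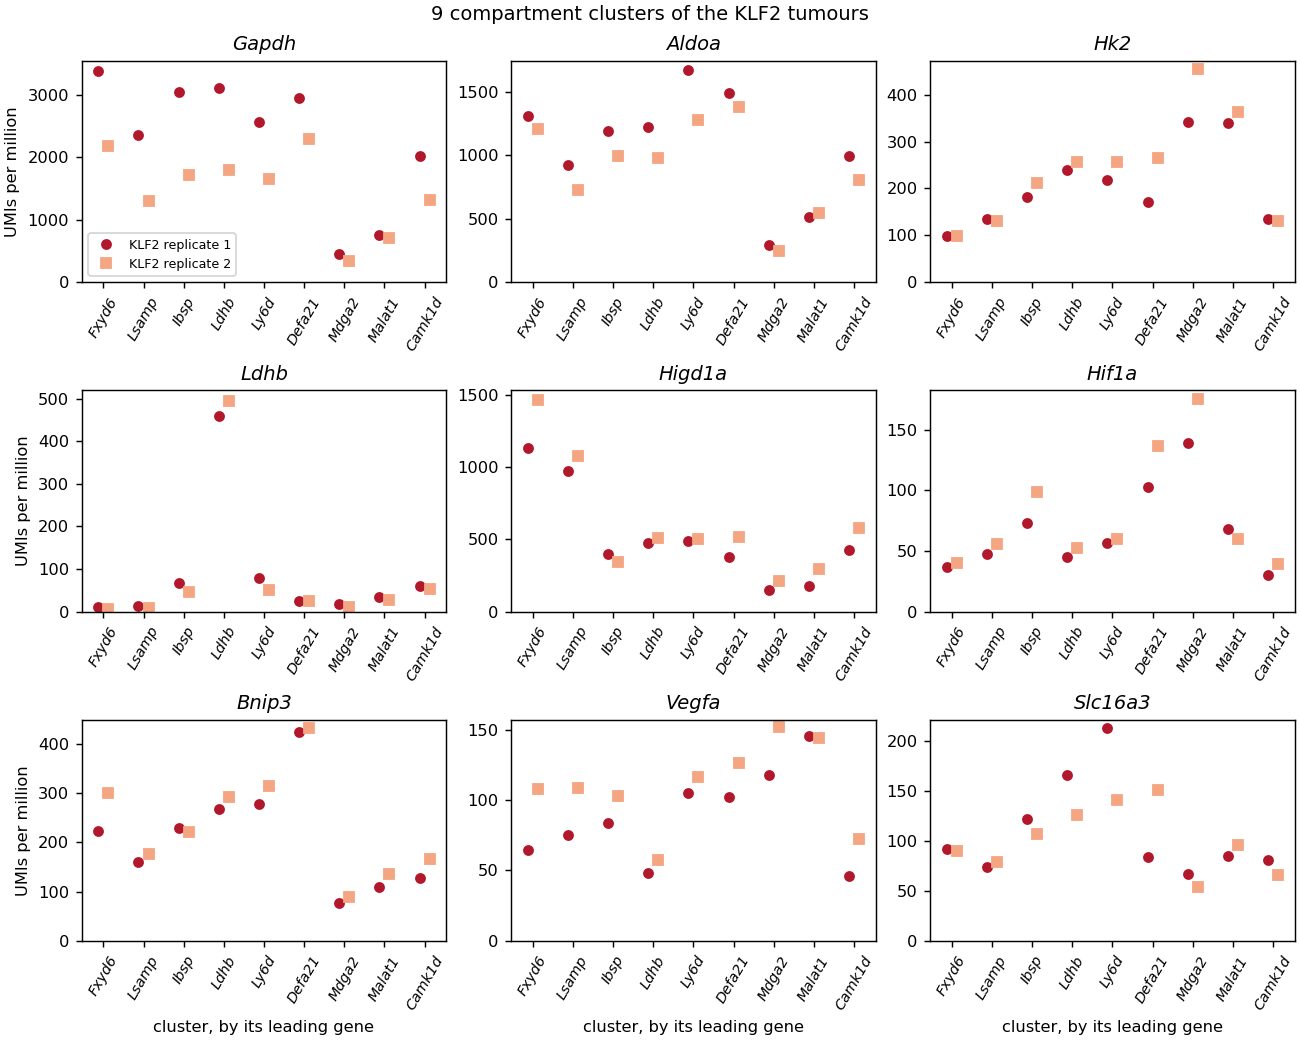
Levels of 9 of the genes (CPM, linear axes from 0) in 9 compartment clusters, each named by its leading gene, in both KLF2 libraries. Gapdh and Aldoa are low and Hk2 is high in the Mdga2 and Malat1 clusters, and Ldhb is high in the cluster named for it. The highest cluster differs between the libraries for Gapdh, Aldoa, Vegfa and Slc16a3.

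In myeloid-like cells, which are macrophages, monocytes and dendritic cells, 18 of the 39 genes were higher. Ddit4, Car9 and Slc2a3 did not pass there, with log2 fold changes of 0.32, -0.22 and -0.16. Vegfa had 131 and 96.4 CPM in the KLF2 libraries, against 2.90 CPM in the vector library (log2 fold change 4.96, SE 0.44, adjusted p = 3.42e-04). Bnip3 had 202 and 120.2 CPM in the KLF2 libraries, against 5.80 CPM in the vector library (log2 fold change 4.46, SE 0.48, adjusted p = 7.80e-04). Egln3, a HIF-inducible prolyl hydroxylase, had 75.3 and 24.8 CPM in the KLF2 libraries, against 0.828 CPM in the vector library (log2 fold change 5.56, SE 0.95, adjusted p = 0.00526), and the KLF2 libraries differed by 3.04-fold from each other. For all 3 genes both KLF2 libraries lay far above the vector library. Of the UMIs of Egln1, Egln2 and Egln3 in these cells, Egln3 took 40.1% and 23.2% in the KLF2 libraries, against 1.69% in the vector library. Adm had 17.7 and 17.0 CPM in the KLF2 libraries, against 0.621 CPM in the vector library, and P4ha2 had 18.5 and 12.1 CPM in the KLF2 libraries, against 0.621 CPM in the vector library. Slc2a1 had 118 and 65.7 CPM in the KLF2 libraries, against 10.4 CPM in the vector library (log2 fold change 2.82, SE 0.45, adjusted p = 0.00411), and Hk2 had 233 and 191 CPM in the KLF2 libraries, against 68.1 CPM in the vector library (log2 fold change 1.31, SE 0.31, adjusted p = 0.0194).

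Further down the pathway in myeloid-like cells, Pgk1 and Pgam1 rose, with log2 fold changes of 1.42 and 1.36, while Gapdh, Ldha, Pkm, Tpi1 and Eno1 did not pass, with log2 fold changes between 0.51 and 0.73. Pfkp, the platelet-type phosphofructokinase, was the only gene to fall there, with 52.5 and 47.9 CPM in the KLF2 libraries, against 78.9 CPM in the vector library (log2 fold change -0.98, SE 0.26, adjusted p = 0.0315), and its share of the phosphofructokinase UMIs was 30.6% and 39.7% in the KLF2 libraries, against 66.5% in the vector library. That call was lost in DESeq2 (adjusted p = 0.0732) and in cells thinned to 1000 UMIs (adjusted p = 0.0529). Hif1a had 122 and 65.5 CPM in the KLF2 libraries, against 31.3 CPM in the vector library (adjusted p = 0.0627). The clusters behind this class differed between the groups. Most vector cells (667 of 677) were in a cluster led by H2-Aa, and most KLF2 cells in clusters led by Mmp12, Cd5l, Plac8 and Saa3. Myeloid subtype and group cannot be told apart in these values. The summed CPM of 11 macrophage markers was 7580.5 and 7564 CPM in the KLF2 libraries, against 3686 CPM in the vector library, and that of 11 dendritic markers was 131 and 125 CPM in the KLF2 libraries, against 397 CPM in the vector library.

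In neutrophil-like cells, 57 and 142 in the KLF2 libraries and 72 in the vector library, counts were small. In these cells Il31ra stood at 89.8% and 129% of its level in the compartment of the same KLF2 library, and Krt7 at 80.7% and 88.8%; their part in the values below was not tested. Ero1l had 166 and 180.4 CPM in the KLF2 libraries, against 0 CPM in the vector library (adjusted p = 1.89e-05). P4ha1 had 84.9 and 59.4 CPM in the KLF2 libraries, against 0 CPM in the vector library (adjusted p = 0.00758). With the KLF2 libraries pooled and vector set to a floor of 3 counts, Ero1l was 8.44-fold and P4ha1 3.30-fold higher. Bnip3 had 224 and 149 CPM in the KLF2 libraries, against 6.92 CPM in the vector library (log2 fold change 4.22, SE 0.96, adjusted p = 3.82e-04). Ldha passed in this class and in no other of the 7, with 521 and 431 CPM in the KLF2 libraries, against 96.9 CPM in the vector library (log2 fold change 1.84, SE 0.61, adjusted p = 0.0264); whether Ldha differed in its change between classes was not tested. Ddit4, an inhibitor of mTORC1 signalling that several stresses raise, had 189 and 239.8 CPM in the KLF2 libraries, against 20.8 CPM in the vector library (log2 fold change 2.92, SE 0.77, adjusted p = 0.00287). Egln3, Higd1a and Pgam1 also rose, with log2 fold changes of 3.72, 3.61 and 2.13. The calls in this class rest on the test used: 12 of the genes were higher at an unadjusted p under 0.05 in edgeR, and DESeq2 called 0 after adjustment.

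In endothelial-like cells 15 genes rose. Among the enzymes of glycolysis further down the pathway, Pgk1 was higher, with 269.9 and 209 CPM in the KLF2 libraries, against 100.2 CPM in the vector library (log2 fold change 0.85, adjusted p = 0.0291). Bnip3 had 49.0 and 66.4 CPM in the KLF2 libraries, against 5.52 CPM in the vector library (log2 fold change 3.02, SE 0.37, adjusted p = 1.69e-14). Hk2 had 24.0 and 57.5 CPM in the KLF2 libraries, against 7.10 CPM in the vector library (log2 fold change 2.20, SE 0.38, adjusted p = 1.47e-07), and the KLF2 libraries were further apart from each other than KLF2 replicate 1 was from vector in CPM. Adm, which acts on vessels, had 96.9 and 60.2 CPM in the KLF2 libraries, against 20.4 CPM in the vector library (log2 fold change 1.52, SE 0.31, adjusted p = 1.64e-05). Egln3 had 67.7 and 19.8 CPM in the KLF2 libraries, against 4.54 CPM in the vector library (log2 fold change 2.78, SE 0.42, adjusted p = 9.14e-10), and Vegfa, which these cells receive mainly from their neighbours, had 14.6 and 42.4 CPM in the KLF2 libraries, against 4.24 CPM in the vector library (log2 fold change 2.44, SE 0.45, adjusted p = 1.03e-06). Gapdh, Aldoa, Ldha, Pkm, Gpi1 and Eno1 had log2 fold changes between -0.52 and -0.04, none past the threshold. Epas1, the HIF subunit typical of endothelium, had 392 and 291 CPM in the KLF2 libraries, against 319 CPM in the vector library (log2 fold change -0.31, adjusted p = 0.475), and the groups overlapped. Most of the vector cells (1327 of 1801) belonged to a cluster led by Fabp4 that held only 4 and 6 KLF2 cells. Limited to the clusters with cells of every library (led by Nts and Igfbp3), 14 genes were higher and 1, Epas1, was lower (log2 fold change -1.01, adjusted p = 0.00717), an alternative chosen after seeing the data. DESeq2 called 5 genes higher in the whole class. In the KLF2 libraries Bnip3 stood at 22.6% and 26.3% of its compartment level, Hk2 at 14.7% and 30.3%, and Adm at 335% and 197%. Il31ra stood at 100% and 110% there, and Krt7 at 13.2% and 21.1%. The part of RNA from outside the cells in these values was not tested.

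In mesenchymal-like cells (fibroblasts and mural cells, 86 and 175 KLF2 cells against 356 vector cells) 11 genes rose. Aldoc had 22.8 and 26.6 CPM in the KLF2 libraries, against 0.350 CPM in the vector library (log2 fold change 5.31, SE 0.93, adjusted p = 3.17e-07), Bnip3 had 133 and 108 CPM in the KLF2 libraries, against 4.20 CPM in the vector library (log2 fold change 4.20, SE 0.62, adjusted p = 7.03e-10), and Vegfa had 159.8 and 128 CPM in the KLF2 libraries, against 12.9 CPM in the vector library (log2 fold change 2.84, SE 0.54, adjusted p = 3.59e-06). Hk2 had 163 and 268 CPM in the KLF2 libraries, against 38.5 CPM in the vector library (log2 fold change 1.86, SE 0.50, adjusted p = 0.00201), the KLF2 libraries both well above vector. Egln3, Ldhb, Ankrd37, Ero1l and Slc2a1 rose with log2 fold changes between 1.35 and 3.15. P4ha1 and P4ha2, which serve collagen synthesis in these cells, had log2 fold changes of 1.01 and 0.90 and did not pass. Gapdh had 1745 and 667 CPM in the KLF2 libraries, against 814 CPM in the vector library, so that vector lay between the KLF2 libraries. DESeq2 called 4 genes higher in this class. In the KLF2 libraries Aldoc stood at 28.9% and 29.9% of its compartment level, Bnip3 at 61.3% and 42.9%, and Vegfa at 217% and 119%. Il31ra stood at 74.5% and 86.8% there, and Krt7 at 20.9% and 33.7%. The part of RNA from outside the cells in these values was not tested.

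In T/NK-like cells Bnip3 had 28.4 and 52.9 CPM in the KLF2 libraries, against 1.58 CPM in the vector library (log2 fold change 4.53, SE 0.48, adjusted p = 6.00e-19). Vegfa had 21.7 and 32.8 CPM in the KLF2 libraries, against 2.14 CPM in the vector library (log2 fold change 3.51, SE 0.50, adjusted p = 1.03e-10), and Aldoc had 28.4 and 23.7 CPM in the KLF2 libraries, against 1.35 CPM in the vector library (log2 fold change 3.99, SE 0.58, adjusted p = 2.80e-10). Slc16a3, Higd1a, Pgam1 and Pgk1 also rose, with log2 fold changes of 1.47, 1.14, 1.09 and 1.02. The genes of glucose uptake and trapping did not pass: Slc2a1 had 16.7 and 22.5 CPM in the KLF2 libraries, against 12.4 CPM in the vector library, and Hk2 had 23.4 and 48.7 CPM in the KLF2 libraries, against 19.5 CPM in the vector library. Ddit4 was lower, with 88.4 and 113 CPM in the KLF2 libraries, against 151 CPM in the vector library (log2 fold change -0.78, SE 0.29, adjusted p = 0.0365). In the same cells 13 of 19 genes known to respond to tissue dissociation were lower and 1 was higher; whether dissociation or handling had a part in Ddit4 was not tested. The Ddit4 call was lost in DESeq2 (adjusted p = 0.434) and with at most 10% mitochondrial UMIs per cell (adjusted p = 0.127). DESeq2 called 4 genes higher in T/NK-like cells. The T/NK-like cells of the groups came from different clusters: 3093 of the 3093 vector cells were in those led by Ms4a4b and Ccl5, which held 1 and 2 KLF2 cells, and the other 93 and 397 KLF2 cells were in one led by Gzma. Subtype and group cannot be told apart there. In B/plasma-like cells 7 genes rose, among them Bnip3 with 52.1 and 126 CPM in the KLF2 libraries, against 1.15 CPM in the vector library (log2 fold change 5.86, SE 0.79, adjusted p = 1.27e-11), Hk2 with 33.3 and 113 CPM in the KLF2 libraries, against 14.9 CPM in the vector library (log2 fold change 2.07, SE 0.51, adjusted p = 9.04e-04) and Slc16a3 with 31.3 and 57.3 CPM in the KLF2 libraries, against 6.88 CPM in the vector library (log2 fold change 2.44, SE 0.67, adjusted p = 0.00324). The KLF2 libraries of B/plasma-like cells differed widely, by a CPM ratio of 0.20 for Vegfa (KLF2 replicate 1 over KLF2 replicate 2), yet both lay above vector. DESeq2 called 2 genes higher in this class. Its vector cells were in 1 cluster (291 of 293 cells, 0 KLF2 cells) and its 101 and 148 KLF2 cells in another, so that cluster and group cannot be told apart.

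Read across the classes, most of the 39 genes were called higher either in 4 or more classes or in none. Bnip3 was higher in all 7 classes, Pgk1, Vegfa and Ndrg1 in 6, and Hk2, Aldoc, Higd1a and Ero1l in 5. Slc16a3, Slc2a1, Adm, Ldhb, Egln3, Pgam1, Pfkfb3, P4ha1 and Ankrd37 were higher in 4. The number of genes higher in at least 4 classes was 17, and 17 were called higher in none, among them Gapdh, Aldoa, Tpi1, Gpi1, Eno1, Pfkl, Pfkm, Hk1, Pdk1, Hif1a and Epas1. Some genes called in none were tested in few classes: Eno2 in 1, Car9 in 2, Slc16a1 in 3, and Pfkm and Pfkfb4 in 4. The shares of all genes called higher in at least 4 classes, or in none, were not computed. These counts are therefore not set apart from those of other genes. The 7 classes come from the same 3 mice and are not independent repeats.

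Level also differed by class within a library. In cells thinned to 1000 UMIs each, Hk2 was seen in 15.9% and 17.1% of cells in the KLF2 libraries, against 1.37% in the vector library in the compartment, and in 2.13% and 3.51% of cells in the KLF2 libraries, against 1.42% in the vector library among T/NK-like cells. Bnip3 was seen in 14.1% and 16.2% of cells in the KLF2 libraries, against 2.57% in the vector library in the compartment, and in 3.19% and 4.76% of cells in the KLF2 libraries, against 0.166% in the vector library among T/NK-like cells. Levels in lymphocytes were set against those in the compartment of the same library. In the KLF2 libraries, T/NK-like cells carried 13.1% and 21.0% of the compartment's CPM of Bnip3, 29.5% and 30.4% of that of Vegfa and 35.9% and 26.6% of that of Aldoc. Krt19, an epithelial keratin that lymphocytes are not known to express, stood at 12.3% and 27.6% of its compartment level in these cells. Il31ra stood at 60% and 104%, against 0.158 CPM in vector T/NK-like cells. The part of RNA from outside the cells in the lymphocyte values of Bnip3, Vegfa and Aldoc was not tested.

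The promoters of genes that rose in most classes are shown because HIF dimers bind the core ACGTG or GCGTG of the hypoxia response element. The 250 bases before the RefSeq transcription start (GRCm38.p6, read 5′ to 3′ on the strand of the gene) are given for Bnip3 (chr7:138909507-138909756, minus strand), Pgk1 (chrX:106186850-106187099, plus strand), Hk2 (chr6:82774455-82774704, minus strand) and Vegfa (chr17:46032378-46032627, minus strand), with every ACGTG or GCGTG and its reverse complement in capitals.
Bnip3: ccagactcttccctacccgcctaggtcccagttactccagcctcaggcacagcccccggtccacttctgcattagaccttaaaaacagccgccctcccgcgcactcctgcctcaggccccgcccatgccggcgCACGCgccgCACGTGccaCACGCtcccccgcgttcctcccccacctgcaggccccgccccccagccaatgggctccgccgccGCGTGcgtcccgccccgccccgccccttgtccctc
Pgk1: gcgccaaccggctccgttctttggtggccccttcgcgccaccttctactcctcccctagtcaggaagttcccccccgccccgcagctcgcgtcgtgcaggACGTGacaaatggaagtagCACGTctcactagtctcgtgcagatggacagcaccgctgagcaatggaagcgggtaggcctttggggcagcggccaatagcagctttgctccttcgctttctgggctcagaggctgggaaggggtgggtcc
Hk2: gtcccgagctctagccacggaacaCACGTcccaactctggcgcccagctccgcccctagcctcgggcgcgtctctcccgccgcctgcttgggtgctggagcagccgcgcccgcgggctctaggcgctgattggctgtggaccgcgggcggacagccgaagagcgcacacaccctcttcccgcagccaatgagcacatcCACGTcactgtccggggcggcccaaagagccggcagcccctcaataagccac
Vegfa: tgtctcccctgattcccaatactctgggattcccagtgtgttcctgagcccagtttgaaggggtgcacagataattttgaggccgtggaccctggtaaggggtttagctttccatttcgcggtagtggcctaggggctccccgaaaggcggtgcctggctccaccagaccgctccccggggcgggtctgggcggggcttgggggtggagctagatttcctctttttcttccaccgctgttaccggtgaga
The Bnip3 window held 5 matches, which begin 117, 108, 107, 99 and 35 bases before the start; those at 108 and 107 overlap in 1 palindromic CACGTG. The Pgk1 window held matches 150 and 131 bases before the start, and the Hk2 window 226 and 52 bases before it. The Vegfa window held no match; the RefSeq start used lies 1021 bases from the principal GENCODE start, so another window would cover other sequence. A promoter was available for 36 of the 39 genes. ACGTG or GCGTG occurred on either strand in 29 of these 36 (80.6%), against 38.8% of 32536 windows of all genes and 49.8% of 18230 windows of genes tested in the compartment. ACGTG alone occurred in 19 (52.8%), against 16.7% and 19.9%. CACGTG, which c-MYC dimers also bind, occurred in 6 (16.7%), against 6.04% and 7.45%. The 39 genes were chosen by name, many as genes known to respond to low oxygen, so a higher share can come from that choice alone. It does not bear on KLF2 against vector. For the 36 genes 1 window each was read, whereas the windows of all genes include several starts of some genes. These letters describe sequence and do not show binding.

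Genes around the 39 were read from lists of the same pathways. Of 28 further hypoxia response genes, 10 were higher and 3 lower in the compartment, where 13.4% of all genes were higher and 10.4% lower. In myeloid-like cells 12 of the 27 tested were higher and 1 lower, where 14.2% of all genes were higher and 8.4% lower. Hilpda, a lipid droplet gene induced by HIF, had 409 and 213 CPM in the KLF2 libraries, against 4.56 CPM in the vector library in myeloid-like cells (log2 fold change 5.76, adjusted p = 5.58e-04). Plod2, a collagen lysyl hydroxylase, had 52.2 and 41.5 CPM in the KLF2 libraries, against 1.27 CPM in the vector library in the compartment (log2 fold change 4.51, adjusted p = 0.00702). Pdgfb, a growth factor gene of endothelium, fell there, with 1.39 and 4.77 CPM in the KLF2 libraries, against 32.1 CPM in the vector library. Of 11 genes of pyruvate use and lactate production, 1 was higher and 4 lower in the compartment. Pcx, which feeds pyruvate into gluconeogenesis, had 3.69 and 2.16 CPM in the KLF2 libraries, against 52.2 CPM in the vector library, and Pdp2, a phosphatase that activates pyruvate dehydrogenase, had 48.2 and 50.9 CPM in the KLF2 libraries, against 3.82 CPM in the vector library. Of 12 pentose phosphate and hexosamine genes, 1 was lower in the compartment, and 1 of the 11 tested in myeloid-like cells, shares near those of all genes. Pgd was the 1 lower in the compartment, with 74.6 and 71.5 CPM in the KLF2 libraries, against 98.6 CPM in the vector library, and Tkt the 1 lower in myeloid-like cells, with 183 and 144 CPM in the KLF2 libraries, against 265 CPM in the vector library.

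Mitochondrial transcripts differed between the groups as well. All 13 mitochondrially encoded genes were lower in the compartment and in myeloid-like, endothelial-like, mesenchymal-like and T/NK-like cells. Their summed CPM in the compartment was 5762 and 8030.1 CPM in the KLF2 libraries, against 102499 CPM in the vector library. Without mitochondrial and rRNA-overlapping genes in the totals, 4 of the 39 genes instead of 2 lay below vector in both KLF2 libraries in the compartment, and 10 instead of 6 in T/NK-like cells. With them in the totals, 19.8% of all genes tested lay below vector in both KLF2 libraries in the compartment and 25.8% in T/NK-like cells. The shares of all genes without them were not computed. With mitochondrial and rRNA-overlapping genes left out before scaling, 20 of the 39 genes were still higher in the compartment and 18 in myeloid-like cells. The shares of all genes called in those fits are not given here.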

How the data were processed

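Liver tumours of 4 mice were profiled by droplet single-cell RNA sequencing. The authors deposited raw UMI counts for each gene and barcode, written with PISA v1.0 per the file headers, on GRCm38 per the submitters' processing notes. Neither the aligner nor the strand rule is stated by those sources. Counts of vector replicate 1 were not analysed here. The 39 genes, the gene lists, the markers and the settings were chosen with earlier results of these data known.

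Barcodes under 300 genes or over 25% mitochondrial UMIs were dropped, which left 6209 and 11103 KLF2 cells and 8403 vector cells. Counts were scaled to 10000 per cell, and 2000 variable genes, without 86 listed genes that include the 39, gave 30 principal components, 15 neighbours and Leiden clusters at resolution 1.0 (scanpy 1.11.5, leidenalg 0.10.2). Scrublet called 0 doublets in all libraries, so it had not worked; an alternative removed the top 5% of scores. Barcode names shared by pairs of libraries numbered 550 to 1146, with 0 identical profiles.

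UMIs were summed per library and class (at least 50 cells in each library) and tested with edgeR 4.0.16 (TMM, filterByExpr, quasi-likelihood test, Benjamini-Hochberg adjustment over all genes of the class); DESeq2 1.42.0 was an alternative. On simulated counts for the compartment (20459 genes) the test recovered 6.06%, 75% and 100% of genes changed by 1, 2 and 4 on the log2 scale, with 2 false calls. For T/NK-like cells (9633 genes) it recovered 7.58%, 77.9% and 100%, with 12 false calls. All simulated libraries came from 1 profile pooled over the libraries, with a fixed dispersion, and only well-counted genes were changed. Differences in cell type between the groups were not simulated, so these rates hold for that setting only. Some isoforms are not reported here, and each share is of the genes named with it. Shares have Wilson 95% intervals and CPM exact Poisson 95% intervals, which cover counting error only. Thinning to 1000 UMIs left out shallower cells, 22 of 606 in the vector compartment. Members named were those with the largest changes past the threshold (up to 12 per class, mean of at least 10 CPM, 2-fold from vector in each KLF2 library), the 3 highest in level, the 3 most different between KLF2 libraries and the isoform families; others were added where a role or a missing call needed them, after their values were seen. Exons of 15 of the 39 genes overlap another gene in GENCODE, and Aldoa, Gapdh, Pgk1, Pgam1 and Ldha have named pseudogene copies, so their counts are uncertain to that extent. Promoters came from RefSeq GRCm38.p6.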

Additional observations from a re-analysis of the deposited data

Results flagged for a closer look

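Ddit4, which encodes an inhibitor of mTORC1, was the only gene of the 39 that passed the test in opposite directions in different cell classes. Its log2 fold change (KLF2 over vector) was 1.52 in the compartment (adjusted p = 0.0227) and 2.92 in neutrophil-like cells (adjusted p = 0.00287), against -0.78 in T/NK-like cells (adjusted p = 0.0365, edgeR's quasi-likelihood test in each class). In CPM, both KLF2 libraries lay above vector in the first 2 classes and below it in T/NK-like cells. In hepatocyte-lineage-like cells alone the log2 fold change was 0.08 (adjusted p = 0.996). Of 19 genes known to respond to tissue dissociation, 7 were higher in the compartment, 1 was higher and 2 lower in neutrophil-like cells, and 1 was higher and 13 lower in T/NK-like cells (edgeR); their part in Ddit4 was not tested. The T/NK-like cells of the groups sit in different clusters, and the compartment holds different cell types in each group. The difference between the classes was itself not tested, and the same 3 mice gave all of them.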

How the results depend on the processing

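Of the 92 calls of the 39 genes over 7 classes (89 higher, 3 lower), all 92 kept their sign with each KLF2 library alone, a value without a test, and 19 passed under every alternative with a test: 12 of the 19 calls in myeloid-like cells, 4 of 11 in mesenchymal-like cells, and 1 each in endothelial-like cells (Egln3), T/NK-like cells (Bnip3) and the compartment (Ankrd37, which could not be tested in hepatocyte-lineage-like cells alone). Leaving that last alternative aside, 16 of the 21 compartment calls passed under every other one. In hepatocyte-lineage-like cells alone, 1 gene was higher and 0 were lower, and Pkm and Higd1a turned to -0.43 and -0.50. DESeq2 called 0 genes higher in neutrophil-like, 5 in endothelial-like, 4 in mesenchymal-like, 4 in T/NK-like and 2 in B/plasma-like cells, and 0 lower in myeloid-like and T/NK-like cells. Thinning to 1000 UMIs left 2, 2, 3, 4 and 1 higher in the same order of classes, and 0 lower in myeloid-like and T/NK-like cells; Pkm and Slc16a3 shares were then above vector in 4 and 3 classes, against 7 and 5. DESeq2 size factors left 4 higher in neutrophil-like cells, and removing the top 5% of doublet scores left 5 there and 5 in T/NK-like cells. With at most 10% mitochondrial UMIs, 7 were higher in endothelial-like cells, 0 lower in T/NK-like cells and 1 lower (Ddit4) in B/plasma-like cells. At resolution 0.5, 6 were higher in endothelial-like and 5 in T/NK-like cells, and 0 lower in T/NK-like cells; at 2.0, 1 (Epas1) was lower in mesenchymal-like cells. Without a filter on low counts, 0 were higher in B/plasma-like cells and 1 (Epas1) lower in neutrophil-like cells. In the endothelial clusters of every library 1 (Epas1) was lower. CPM without mitochondrial and rRNA-overlapping genes put 4, 3, 7, 6, 10 and 9 genes below vector in both KLF2 libraries in the compartment, myeloid-like, endothelial-like, mesenchymal-like, T/NK-like and B/plasma-like cells, against 2, 1, 2, 3, 6 and 5. With mitochondrial and rRNA-overlapping genes in the totals, 19.8%, 25.5%, 23.2%, 17.9%, 25.8% and 28.8% of all genes tested lay there, in the same order of classes. The shares of all genes without them were not computed. Apart from the fit in hepatocyte-lineage-like cells alone, the shares of all genes called under the alternatives are not given here. The counts of called genes under them are therefore not set apart from those of other genes. The causes were not tested. Myeloid-like cells gave no value at resolution 0.5, where only 10 vector cells bore that name. A cluster led by H2-Ab1 with 1780 vector cells was then unnamed, with Ptprc. The name of the vector myeloid-like cells thus depended on the resolution, and the calls in this class were not tested at 0.5. Neutrophil-like cells gave no value with at least 500 genes or at most 10% mitochondrial UMIs, where cells were too few. The compartment's median over all genes was 0.68 with TMM. No paired analysis was possible because the vector group had counts for replicate 2 only. With 1 vector mouse, its own deviation cannot be told apart from the group, and in the smaller classes depth limited which genes could be tested.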
